A study of Homo sapiens with 24 samples.

Results

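The proteasome subunit genes were taken as the protein-coding genes whose symbol is PSM, a letter from A to G and a number, and 48 of the 58174 genes listed for each cell line (19799 of them protein-coding) met that rule. They comprised 8 alpha and 7 constitutive beta subunits of the 20S core, 3 immunoproteasome beta subunits (PSMB8, PSMB9 and PSMB10), the thymoproteasome subunit PSMB11, 9 subunits of the base and 8 of the lid of the 19S cap, 3 chaperones of 19S assembly, 5 regulators of the core and 4 chaperones of 20S assembly. RNA abundance was measured by sequencing of total RNA after removal of ribosomal RNA in 4 human cancer cell lines. These lines came from a pancreatic ductal adenocarcinoma (PANC1), a lung adenocarcinoma (A549), an ovarian clear cell adenocarcinoma (ES2) and an amelanotic melanoma (MV3). Cells received a control siRNA (siC) or several siRNAs, pooled, that target IGF2BP1 (siI1), an RNA-binding protein that stabilises many of the mRNAs it binds in cancer cells. A549, ES2 and MV3 were harvested 72 h and PANC1 96 h after transfection, with 3 libraries per group and 24 in all, so that a difference between PANC1 and the other lines cannot be told apart from a difference in time. Both groups were transfected, 1 line stood for each tumour type, and no rescue of IGF2BP1 was among the samples.

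The 26S proteasome degrades proteins that carry ubiquitin chains. Its 20S core is a stack of alpha and beta rings in which the subunits encoded by PSMB5, PSMB6 and PSMB7 hold the proteolytic sites, and interferon-induced PSMB8, PSMB9 and PSMB10 can take their places in the immunoproteasome, which favours peptides suited for display on MHC class I. The 19S cap recognises, deubiquitinates, unfolds and feeds substrates into the core, and cancer cells, which make and degrade much protein, are known for their sensitivity to drugs that block the core.

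Values are FPKM, read counts relative to gene length and library size, scaled within each line by the authors. Libraries held 15572492 to 20082702 assigned reads in MV3, 6532175 to 8472851 in PANC1, 6421764 to 8419467 in ES2 and 3105215 to 4553326 in A549, so counting error was smallest in MV3 and greatest in A549. The targeted gene fell in every line, from a mean of 11.1 to 2.78 FPKM in PANC1, 9.26 to 2.91 in MV3, 13.1 to 4.14 in ES2 and 39.7 to 15.6 in A549, and its siC and siI1 libraries did not overlap in any line. Of the markers of tissue origin, keratins were high in A549 and PANC1, while NKX2-1 and SFTPB in A549 and SOX10, TYR and S100B in MV3 had no read in any of the 6 libraries of the line. Of the leukocyte markers, CD3E had no read in any library, PTPRC at most 2 reads and CD14 at most 46.

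Promoter sequences of PSMD2, PSMD10, PSMD3, PSMD14 and PSMB10, picked with their values known, are shown to let their composition be compared. Proteasome genes are known to be transcribed together under NFE2L1, a factor that binds the antioxidant response element. RefSeq's promoter table (250 bases before to 50 bases after the annotated start, GRCh38.p14) held 42 of the 48 members, and for genes with several starts the first listed was used. PSMD2 lay at chr3:184298991-184299290 (plus strand), PSMD10 at chrX:108091493-108091792 (minus strand), PSMD3 at chr17:39980557-39980856 (plus strand), PSMD14 at chr2:161308175-161308474 (plus strand) and the interferon-responsive PSMB10 at chr16:67936801-67937100 (minus strand). Capitals mark matches, on either strand, to the CCAAT box (CCAAT), the antioxidant response element core (TGACNNNGC), the interferon-stimulated response element core (GAAA, any 2 bases and GAAA again) and the gamma-activated site core (TTCNNNGAA).
PSMD2: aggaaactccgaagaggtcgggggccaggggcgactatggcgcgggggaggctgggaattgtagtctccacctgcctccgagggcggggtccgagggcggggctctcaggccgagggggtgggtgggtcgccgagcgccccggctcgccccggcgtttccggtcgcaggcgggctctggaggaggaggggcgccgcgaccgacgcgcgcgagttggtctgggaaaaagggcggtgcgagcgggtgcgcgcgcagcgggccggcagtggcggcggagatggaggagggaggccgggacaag
PSMD10: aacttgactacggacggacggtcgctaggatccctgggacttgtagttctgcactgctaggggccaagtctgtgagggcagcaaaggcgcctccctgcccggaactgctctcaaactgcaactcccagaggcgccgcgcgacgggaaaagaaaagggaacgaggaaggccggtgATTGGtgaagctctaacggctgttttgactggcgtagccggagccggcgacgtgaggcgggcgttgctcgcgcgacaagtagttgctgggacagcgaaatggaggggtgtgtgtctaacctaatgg
PSMD3: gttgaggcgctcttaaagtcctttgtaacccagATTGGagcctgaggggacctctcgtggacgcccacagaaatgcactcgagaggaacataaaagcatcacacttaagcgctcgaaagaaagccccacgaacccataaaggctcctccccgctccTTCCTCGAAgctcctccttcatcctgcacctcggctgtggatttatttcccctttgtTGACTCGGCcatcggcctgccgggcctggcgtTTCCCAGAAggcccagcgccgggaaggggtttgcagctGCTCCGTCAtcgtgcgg
PSMD14: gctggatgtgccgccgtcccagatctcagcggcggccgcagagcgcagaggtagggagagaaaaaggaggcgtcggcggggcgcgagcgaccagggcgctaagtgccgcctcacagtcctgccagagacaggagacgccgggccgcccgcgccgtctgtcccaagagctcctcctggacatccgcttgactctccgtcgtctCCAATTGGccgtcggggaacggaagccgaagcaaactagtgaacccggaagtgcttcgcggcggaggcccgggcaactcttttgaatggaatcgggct
PSMB10: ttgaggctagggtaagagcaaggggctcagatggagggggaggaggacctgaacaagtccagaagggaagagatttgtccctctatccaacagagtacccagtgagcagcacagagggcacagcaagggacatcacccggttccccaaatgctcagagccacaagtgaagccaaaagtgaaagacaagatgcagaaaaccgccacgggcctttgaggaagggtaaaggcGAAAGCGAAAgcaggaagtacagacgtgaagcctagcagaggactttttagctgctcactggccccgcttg
PSMD2 held no match and PSMD10 held 1 CCAAT box, whereas PSMD3 held 1 CCAAT box, 2 antioxidant response cores and 2 gamma-activated site cores. PSMD14 held 2 CCAAT boxes on opposite strands that share bases, and PSMB10 held 1 interferon-stimulated response core. Of the members not shown that were lower in at least 3 lines, PSMF1, PSMC1 and PSMD11 held no match. PSMD1 held 1 antioxidant response core, and PSMB7 and PSMD4 were not among the promoters held. Among the 42 members, 19 (45.2%) held a CCAAT box, 13 (31%) an antioxidant response core, 6 (14.3%) an interferon-stimulated response core and 5 (11.9%) a gamma-activated site core. The shares of all 27305 promoters with these letters were 35.7%, 13.6%, 3.65% and 7.88%. The 6 members with the interferon-stimulated response core were PSMA4, PSMB4, PSMB10, PSME1, PSME2 and PSMG4. A match describes letters in this window and is not a bound site.

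In control cells, the median members of the core and of the cap stood well above the typical gene, PSMB8 and PSMB9 well below it and PSMB10 below it. The 14 constitutive core genes that were detected had a median of 44.1 FPKM in ES2, 41.5 in A549, 37.2 in MV3 and 30.3 in PANC1, and the 17 cap genes one of 40.6, 36.7, 38.2 and 34.1 FPKM. Over the 10960 to 11756 protein-coding genes tested in a line, the median was 6.27 to 7.32 FPKM. PSMA7, an alpha subunit, led the core in each line (131 to 248 FPKM), and PSMA2 or PSMA6 was its lowest detected member (3.97 to 5.43 FPKM). Among regulators, the medians were 19, 33.2, 16.9 and 18.9 FPKM in the same order of lines. Of the immunoproteasome, PSMB10 was the most abundant with 5.78, 5.18, 3.66 and 2.03 FPKM, and PSMB9 reached no more than 0.955 FPKM in any line.

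**Figure D1:**
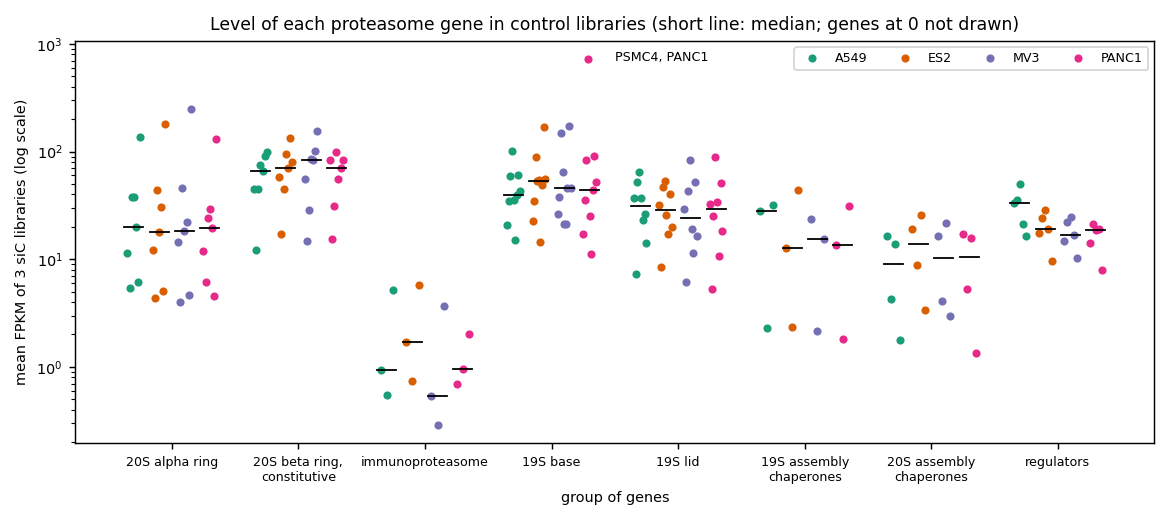
Mean FPKM over the 3 siC libraries (log axis) of each detected proteasome gene in each line, grouped by the role of the gene product. PSMC4 in PANC1 stands alone at 725 FPKM, and the 3 immunoproteasome genes lie at or below 5.78 FPKM in every line.

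PSMA8, an alpha subunit of the testis, and PSMB11, the beta subunit of the thymic cortex, had 0 reads in all 24 libraries. A count of 0 allows up to 3 reads, which was worth 0.0782 to 0.492 FPKM of PSMA8 and 0.0702 to 0.442 FPKM of PSMB11 depending on the library, a limit that covers counting error only.

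PSMC4, an ATPase of the 19S base at chr19:39971165-39981764 (hg38), was the exception among levels. Its siC mean was 725 FPKM in PANC1, 100.3 in A549, 64.6 in MV3 and 52.9 in ES2, the first of which was 11.2-fold the median of the other 3 lines. The other members tested in all lines lay between 0.393-fold (PSMB10) and 1.63-fold (PSMA4) of that median, and only 20 of 9650 protein-coding genes (0.207%) had a fold at or above that of PSMC4. Its neighbours on the chromosome shared the shift, a comparison chosen after the values were seen. Of the 12 expressed genes on the side of lower coordinates, 11 were more than 3-fold above the other lines, FBL (728 FPKM, 8.65-fold) and RPS16 (2249 FPKM, 9.02-fold) among them. On the other side 4 of 12 were, up to AKT2 (9.86-fold) at chr19:40230317-40285536. The next gene, C19orf47, was at 0.801-fold, and PLD3 after it at 0.332-fold.

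**Figure D2:**
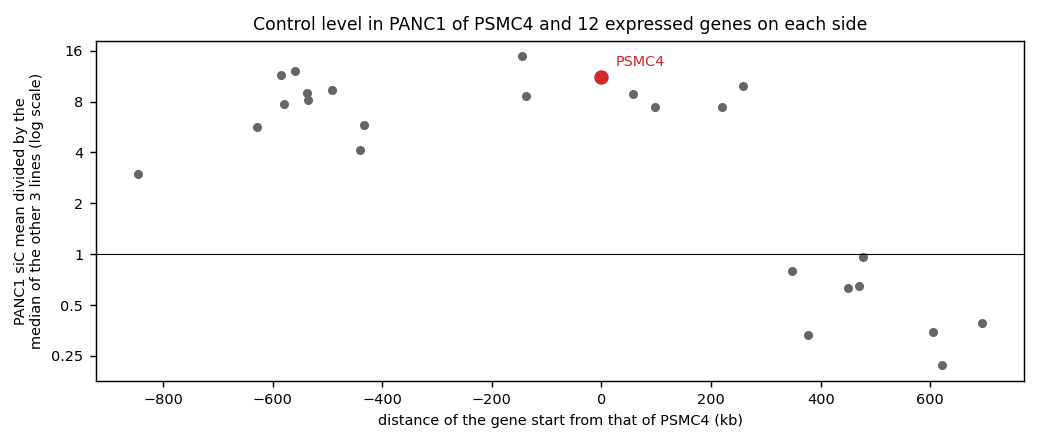
Fold of the PANC1 siC mean over the median of the siC means of A549, ES2 and MV3 (log axis) for PSMC4 and the 12 expressed protein-coding genes on each side of it, in chromosome order. The values lie between 2.98 and 14.9 from PAK4 to AKT2 and at or below 0.967 from C19orf47 on.

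IGF2BP1 knockdown went with lower levels of many proteasome genes in ES2 and MV3 and of few in A549 and PANC1, and in ES2 all 17 members of the 19S cap were lower. A member was called lower or higher at a Benjamini-Hochberg adjusted p under 0.05 from limma, fitted per line on log2(FPKM + 0.5) over all genes that averaged 0.5 FPKM or more in the line. In A549 6 of 45 tested members were lower, against 11.4% of protein-coding genes. In ES2 26 of 46 were lower, against 17.9%, and in MV3 28 of 44, against 26.8%. PANC1 had 10 of 46 lower, against 17.3%. These counts moved with the scaling, since with the sum of all genes set equal PANC1 had 40 lower (beside 7616 of 11109 protein-coding genes) and ES2 17, and with the sum of protein-coding genes set equal ES2 had 16. With a minimum log2 fold change of 0.3, MV3 had 14 lower and A549 2. Higher members were 2 in ES2 (13.4% of protein-coding genes), 1 in PANC1 (13.6%), 0 in A549 (7.94%) and 0 in MV3 (19.6%). At an unadjusted limma p under 0.05, 2 members were higher in A549 (PSMA4 and PSMD7) and 1 in MV3 (PSME1), and limma voom on the recovered reads called 1 higher in each. These genes were named after their values were seen. Because the samples are bulk RNA, fewer cells of a type and less RNA per cell cannot be told apart.

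Fold changes here are log2(siI1/siC) on the log2(FPKM + 0.5) scale, which understates changes of genes near or under 1 FPKM. The median over tested members was -0.29 in ES2, -0.26 in MV3, -0.06 in PANC1 and -0.05 in A549, beside -0.03, -0.02, -0.04 and -0.03 over all protein-coding genes tested. All 3 siI1 libraries lay below all 3 siC libraries for 31 members in ES2, 33 in MV3, 15 in PANC1 and 15 in A549, where this held for 29.9%, 34.7%, 29.9% and 25.6% of protein-coding genes. The opposite order held for 5, 1, 4 and 3 members, and for 23.9%, 28.1%, 22.5% and 18.9% of protein-coding genes. In A549 the 6 lower members became 2 without siC 1, siC 3, siI1 2 or siI1 3 and 3 without siI1 1 and were 6 without siC 2, while the lower protein-coding genes went from 1340 to between 674 and 890 with any 1 library left out. PANC1 went from 10 lower to 6 without siC 1.

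**Figure D3:**
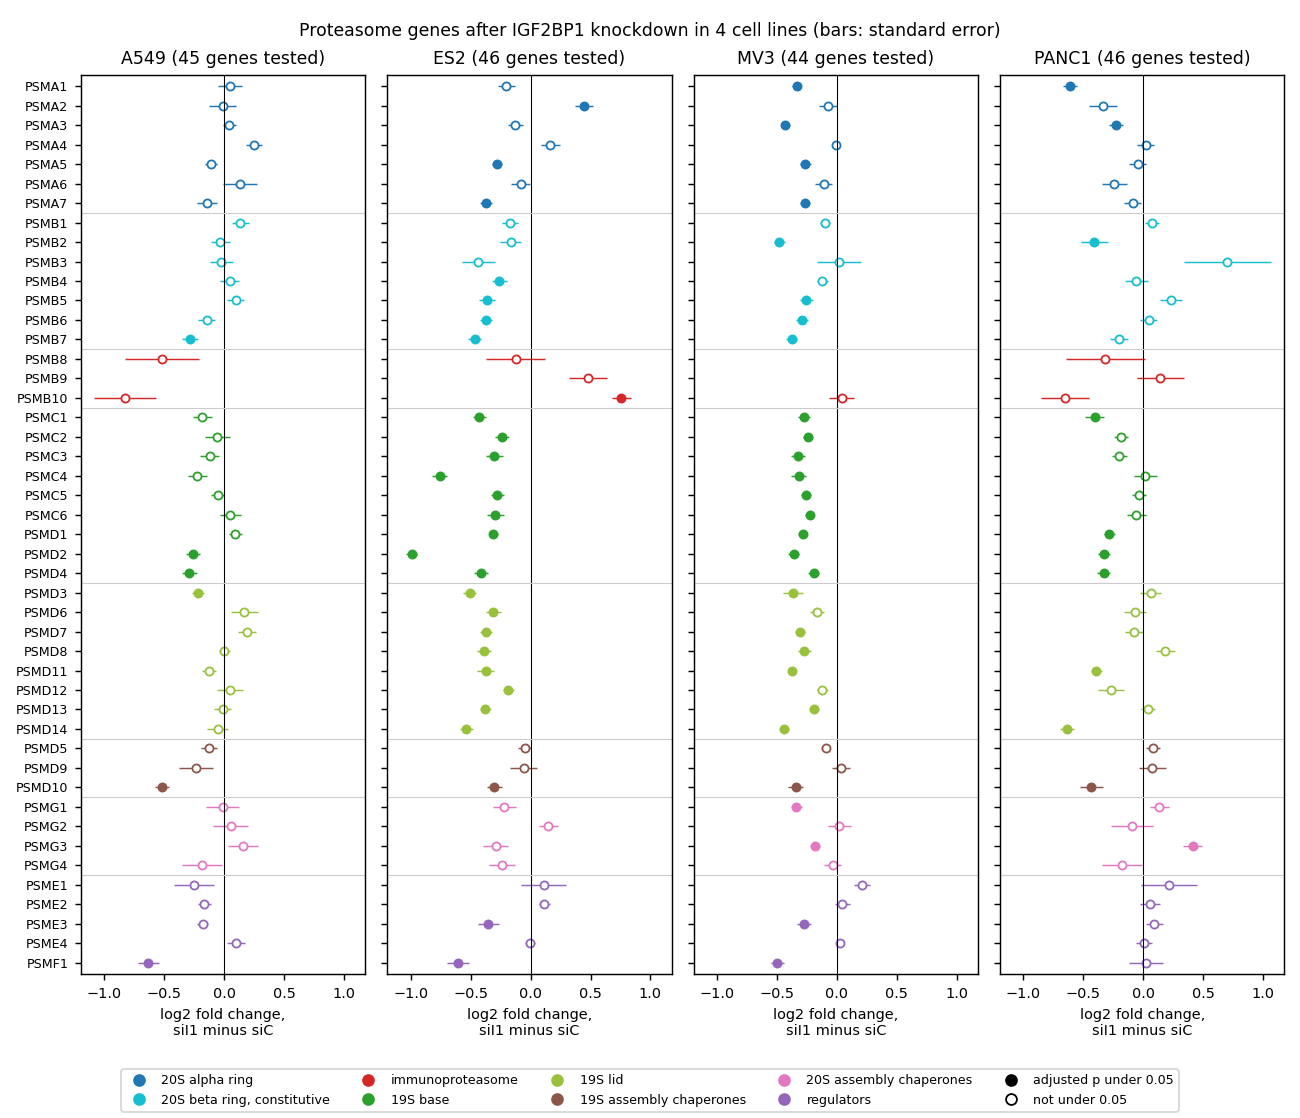
log2 fold change (siI1 against siC, n = 3 libraries each) of every tested proteasome gene in the 4 lines, grouped by role, with the standard error from limma as bars. The 17 cap genes lie between -0.99 and -0.19 in ES2 and between -0.44 and -0.12 in MV3, and on both sides of 0 in A549 and PANC1.

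Scaling moved the zero line more than it moved members against other genes. Setting each PANC1 library to the same sum of all genes shifted the median of its protein-coding genes from -0.04 to -0.71, and setting the sum of protein-coding genes equal moved it to 0.09 in ES2 and 0.10 in MV3. Relative to the protein-coding median, the 19S cap median stayed between -0.34 and -0.33 in ES2, -0.26 and -0.24 in MV3, -0.22 and -0.15 in PANC1 and at -0.03 or -0.02 in A549 under the 4 scalings.

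The 19S base holds the 6 ATPases PSMC1 to PSMC6, which unfold substrates, the scaffolds PSMD1 and PSMD2 and the ubiquitin receptor PSMD4. All 9 were lower in ES2 and in MV3, 4 in PANC1 and 2 in A549, with median log2 fold changes of -0.31, -0.28, -0.20 and -0.12. The shares of protein-coding genes lower were 17.9%, 26.8%, 17.3% and 11.4% in the same order. The largest fall of any member was that of PSMD2 (chr3:184299198-184309050) in ES2, with 164, 174 and 166 FPKM in siC and 85.4, 80.9 and 86.7 FPKM in siI1. The ES2 groups lay far apart and the log2 fold change was -0.99 ± 0.05 (SE, n = 3 per group, limma adjusted p = 0.000116). In MV3 it had 176, 176 and 164 FPKM in siC and 129, 133 and 139 FPKM in siI1, a log2 fold change of -0.36 ± 0.04 (limma adjusted p = 0.00159). In PANC1 it had 92.2, 93.7 and 89 FPKM in siC and 74.5, 73.5 and 70.4 FPKM in siI1, a change of -0.33 ± 0.05 (limma adjusted p = 0.00594). In neither line did the groups overlap. A549 showed the smallest fall, with 63.3, 56.2 and 60.6 FPKM in siC and 49, 51.7 and 49.3 FPKM in siI1, again without overlap, with a log2 fold change of -0.26 ± 0.06 and a limma adjusted p of 0.0339 that became as high as 0.101, with the call lost, when any library except siC 2 was left out. PSMD2 differed between lines (moderated F test over all 24 libraries in limma, adjusted p = 2.44e-07).

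PSMC4 was next in ES2, with 51.5, 56.4 and 50.6 FPKM in siC and 32.6, 31 and 29.5 FPKM in siI1 and a log2 fold change of -0.76 ± 0.06 (limma adjusted p = 0.000678). The ES2 groups were wide apart, and in MV3 the fall was -0.32 ± 0.06 (limma adjusted p = 0.00885) without overlap. In PANC1, where the gene was so abundant, it had 730.1, 796 and 648 FPKM in siC and 726, 728 and 739 FPKM in siI1. The PANC1 groups overlapped and their difference was 0.02 ± 0.09 (limma adjusted p = 0.914). The fold changes of PSMC4 differed between lines (limma adjusted p = 0.000116).

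PSMD1, the other scaffold of the base, was lower in ES2, MV3 and PANC1 but not in A549. It had 48.2, 48.6 and 50.2 FPKM in siC and 39, 38.9 and 40.3 FPKM in siI1 in ES2, 45.6, 48.1 and 45.2 FPKM in siC and 38.7, 38.4 and 36.6 FPKM in siI1 in MV3 and 44.4, 43.6 and 44.4 FPKM in siC and 36.4, 35.2 and 36.9 FPKM in siI1 in PANC1. No group overlapped in these lines, and the log2 fold changes were -0.31 ± 0.04, -0.29 ± 0.04 and -0.28 ± 0.05 (limma adjusted p = 0.00276, 0.00203 and 0.00741). In A549 all siI1 libraries (41.3, 41.5 and 43.5 FPKM) were above all siC libraries (40.2, 40.9 and 37.3 FPKM), a difference of 0.09 ± 0.05 that did not pass (limma adjusted p = 0.337). The test between lines gave an adjusted p of 2.07e-05 in limma.

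PSMD4, which binds ubiquitin chains, was lower in all 4 lines without overlap of groups. Its log2 fold changes were -0.33 ± 0.05 in PANC1, -0.20 ± 0.05 in MV3, -0.41 ± 0.06 in ES2 and -0.29 ± 0.06 in A549 (limma adjusted p = 0.00809, 0.0188, 0.00479 and 0.0264), and they did not pass the test between lines (limma adjusted p = 0.128). In A549 it had 43, 41.1 and 45.2 FPKM in siC and 33.2, 36.1 and 36.2 FPKM in siI1. That call was lost when any library except siC 2 was left out, with limma adjusted p up to 0.0862, and the MV3 call without siC 2 or siI1 1, up to 0.054. PSMC1 was lower in ES2 (-0.43 ± 0.05), MV3 (-0.28 ± 0.05) and PANC1 (-0.41 ± 0.08), the last not without siC 1 (limma adjusted p = 0.0523), and 76.1% of its exon bases are shared with NRDE2 on the opposite strand, whose reads cannot be told apart where strand was not used in counting. The other ATPases PSMC2, PSMC3, PSMC5 and PSMC6 fell by 0.23 to 0.32 on the log2 scale in ES2 and MV3 and had differences of -0.20 to 0.05 in A549 and PANC1, where none passed. Their ES2 calls were weak, since PSMC2 lost its call without any 1 of the 6 libraries and the others without 3 to 5 of them.

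The lid holds the deubiquitinase PSMD14, which removes ubiquitin chains at the entry to the core, and 7 structural subunits, PSMD3, PSMD6, PSMD7, PSMD8, PSMD11, PSMD12 and PSMD13. All 8 were lower in ES2, 6 in MV3, 2 in PANC1 and 1 in A549, and the median log2 fold changes were -0.38, -0.29, -0.07 and -0.01. Beside these counts stood 17.9%, 26.8%, 17.3% and 11.4% of protein-coding genes lower. PSMD14 (chr2:161308425-161411717) fell most, and most of all in PANC1, with 18.9, 18.3 and 17.9 FPKM in siC and 12.1, 11 and 11.6 FPKM in siI1. In ES2 it had 20.6, 19.3 and 20.3 FPKM in siC and 14.4, 13 and 13.6 FPKM in siI1 and in MV3 16.7, 16.9 and 16.2 FPKM in siC and 11.7, 12.7 and 11.8 FPKM in siI1. In these 3 lines the groups lay well apart, with log2 fold changes of -0.64 ± 0.06, -0.54 ± 0.06 and -0.44 ± 0.04 in that order (limma adjusted p = 0.00162, 0.00159 and 0.000667). In A549, with 14.4, 14.7 and 13.5 FPKM in siC and 12.2, 13.9 and 15 FPKM in siI1, the groups overlapped (-0.05 ± 0.09, limma adjusted p = 0.755), and the lines differed (limma adjusted p = 0.000148).

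Among the structural lid subunits, PSMD11 was lower in ES2, MV3 and PANC1 by nearly the same amount (-0.38 ± 0.07, -0.38 ± 0.03 and -0.39 ± 0.05), and reached -0.13 ± 0.06 in A549 (limma adjusted p = 0.214). PSMD3 (chr17:39980807-39997959) was lower in A549 (-0.22 ± 0.05), ES2 (-0.51 ± 0.05) and MV3 (-0.36 ± 0.08) and had 31.1, 36.1 and 30.9 FPKM in siC and 37.1, 33.6 and 31.6 FPKM in siI1 in PANC1, where the groups overlapped. The PSMD3 call was lost in A549 when any library except siC 2 was left out (limma adjusted p up to 0.110) and in MV3 without siC 2 (0.0536). PSMD8 was lower in ES2 (-0.39 ± 0.06) and MV3 (-0.27 ± 0.05). In PANC1 its siI1 libraries (105, 100.5 and 96.8 FPKM) were all above its siC libraries (96.3, 89.9 and 80.2 FPKM), a difference of 0.18 ± 0.08 that did not pass (limma adjusted p = 0.14). PSMD8 differed between lines (limma adjusted p = 0.000136). PSMD7 and PSMD13 passed in ES2 and MV3, PSMD13 in MV3 not without siC 1 or siC 2, and PSMD6 and PSMD12 in ES2, where each lost its call without 4 or 5 of the 6 libraries.

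**Figure D4:**
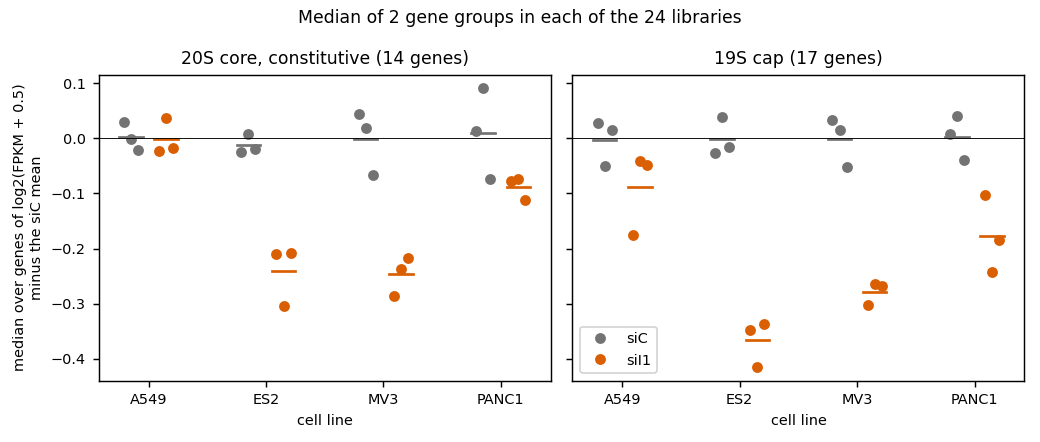
Median over the 14 constitutive core genes and over the 17 cap genes of the log2 ratio of each library to its line's siC mean, for each of the 24 libraries. For the cap, the 3 siI1 libraries of ES2 lie between -0.41 and -0.34 and those of MV3 between -0.30 and -0.27, while the siC libraries of all lines lie between -0.05 and 0.04.

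The fall of the cap in ES2 and MV3 appeared in each siI1 library. The median cap gene was lower by 0.35, 0.41 and 0.34 on the log2 scale in the ES2 siI1 libraries and by 0.30, 0.27 and 0.27 in those of MV3, with all 17 genes below the siC mean in each of these 6 libraries. The median over protein-coding genes tested lay between -0.034 and -0.017 there. Cap genes also moved together in controls, with 11, 6 and 9 of 17 below that mean in the siC libraries of ES2 and 4, 5 and 16 in those of MV3. The median in the last, MV3 siC 3, was -0.05. Over the alternatives tried 11 to 17 cap genes were lower in ES2 and 12 to 16 in MV3, apart from 7 in MV3 with a minimum log2 fold change of 0.3, whereas A549 had 0 to 5 and PANC1 5 to 8, apart from 17 in PANC1 with the sum of all genes set equal. Markers of other cell types also moved in these lines. The summed fibroblast markers went from 2.77 to 4.35 FPKM in ES2 siC to 17.3 to 25.8 in siI1 and from 1.29 to 1.38 to 5.07 to 5.56 in MV3, by COL1A1, with LUM and COL3A1 at 0 in all ES2 libraries, and the endothelial markers in ES2 went from 8.62 to 11.4 FPKM to 14.6 to 16.4 FPKM by CDH5. The summed epithelial markers of A549 went from 644 to 720 FPKM in siC to 300 to 323 FPKM in siI1, and those of PANC1 the other way, from 793 to 1081 FPKM to 1251 to 1333 FPKM. The part of these shifts in the proteasome values was not tested.

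PSMD10, also called gankyrin, binds the ATPase PSMC4 during assembly of the base and was lower in every line. It had 31.7, 33.8 and 30.3 FPKM in siC and 21.5, 22.2 and 22.8 FPKM in siI1 in A549 and 16.3, 15.4 and 14.9 FPKM in siC and 12.8, 12.6 and 11.1 FPKM in siI1 in MV3. It had 44.6, 42 and 46.1 FPKM in siC and 33.4, 37.3 and 36.8 FPKM in siI1 in ES2 and 30.1, 33.7 and 29.6 FPKM in siC and 25.1, 23.9 and 20 FPKM in siI1 in PANC1. In none of the lines did the groups overlap. The log2 fold changes were -0.43 ± 0.10 in PANC1, -0.34 ± 0.06 in MV3, -0.30 ± 0.06 in ES2 and -0.52 ± 0.06 in A549 (limma adjusted p = 0.0237, 0.00687, 0.0152 and 0.00399), and a difference between lines was not detected (limma adjusted p = 0.319). Left out 1 at a time, siC 1 or siC 3 of ES2 and siC 1, siC 2, siC 3 or siI1 2 of PANC1 ended the call (limma adjusted p up to 0.0513 and 0.0688). The other base chaperones, PSMD5 and PSMD9, passed in no line, with differences of -0.24 to 0.08.

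In the 20S core the falls were fewer. Of the 14 constitutive genes tested 8 were lower in MV3, 6 in ES2, 3 in PANC1 and 1 in A549, and 1 was higher, in ES2. Of protein-coding genes, 26.8%, 17.9%, 17.3% and 11.4% were lower in these lines, and 13.4% were higher in ES2. The median log2 fold changes were -0.26, -0.23, -0.07 and 0.01. Among the alpha subunits, which gate the entrance of the core, PSMA1 had 12.2, 12.5 and 11.5 FPKM in siC and 7.8, 7.66 and 7.63 FPKM in siI1 in PANC1. Its groups were far apart there and the log2 fold change was -0.61 ± 0.06 (limma adjusted p = 0.00171). In MV3 it fell by less (-0.34 ± 0.04, limma adjusted p = 0.00143), and its differences in ES2 (-0.20 ± 0.07) and A549 (0.05 ± 0.10) did not pass. PSMA1 shares 26.7% of its exon bases with a gene on the same strand. PSMA3 was lower in MV3 (-0.43 ± 0.04) and PANC1 (-0.23 ± 0.06), the latter lost without any library except siI1 2. PSMA5 and PSMA7 were lower in ES2 (-0.28 ± 0.04 and -0.37 ± 0.05) and MV3 (-0.26 ± 0.05 and -0.27 ± 0.04), and PSMA4 and PSMA6 passed in no line.

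PSMA2 was the alpha subunit that went the other way. In ES2 it had 4.2, 4.23 and 4.57 FPKM in siC and 5.75, 6.08 and 6.41 FPKM in siI1. All siI1 libraries were higher, and the log2 fold change was 0.44 ± 0.07 (limma adjusted p = 0.00763). In PANC1, with 6.4, 5.75 and 6.29 FPKM in siC and 4.11, 5.64 and 4.66 FPKM in siI1, all siI1 libraries were lower, a difference of -0.33 ± 0.12 that did not pass (limma adjusted p = 0.0876). The lines differed (limma adjusted p = 0.00102), and 17.2% of the exon bases of PSMA2 lie in another gene on the same strand.

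Of the catalytic subunits, PSMB7 (trypsin-like site) was lower in A549, ES2 and MV3. It had 103, 95.1 and 97.8 FPKM in siC and 74.1, 85.2 and 83.5 FPKM in siI1 in A549 and 161, 154 and 152 FPKM in siC and 113, 121 and 125 FPKM in siI1 in MV3. Groups overlapped in neither, and the log2 fold changes were -0.29 ± 0.07 in A549, -0.47 ± 0.06 in ES2 and -0.38 ± 0.04 in MV3 (limma adjusted p = 0.0401, 0.00252 and 0.00136). The A549 call was lost without any 1 of the 6 libraries (limma adjusted p 0.0679 to 0.130), and in PANC1 the difference was -0.20 ± 0.07 (limma adjusted p = 0.0914). PSMB5 (chymotrypsin-like site, the target of proteasome inhibitors) had 67.8, 76 and 66.3 FPKM in siC and 53, 52.3 and 57.1 FPKM in siI1 in ES2 and 55.7, 61.9 and 48.8 FPKM in siC and 64.3, 63 and 67 FPKM in siI1 in PANC1. The siI1 libraries were all below siC in ES2 and all above siC in PANC1. Its log2 fold changes were -0.37 ± 0.07 in ES2, -0.25 ± 0.05 in MV3 and 0.23 ± 0.09 in PANC1 (limma adjusted p = 0.0105, 0.0104 and 0.119), so that the last did not pass, while the lines differed (limma adjusted p = 0.000495). PSMB6 (caspase-like site) was lower in ES2 (-0.37 ± 0.05) and MV3 (-0.29 ± 0.05), and its groups overlapped in A549 (-0.15 ± 0.07) and PANC1 (0.04 ± 0.07).

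Of the beta subunits without an active site, PSMB2 was lower in MV3, with 15.4, 14.1 and 15.3 FPKM in siC and 10.7, 10.4 and 10.6 FPKM in siI1. In PANC1 it had 14.6, 18.2 and 13.5 FPKM in siC and 11.4, 10.8 and 12 FPKM in siI1. The groups were apart in both, with log2 fold changes of -0.48 ± 0.04 and -0.41 ± 0.11 (limma adjusted p = 0.000538 and 0.0451), and the PANC1 call was lost without siC 1 or any 1 of the siI1 libraries. PSMB4 was lower in ES2 (-0.26 ± 0.06), a call lost without 4 of the 6 libraries, and in MV3 its siI1 libraries also lay below siC without passing (-0.12 ± 0.05, limma adjusted p = 0.08). PSMB1 and PSMB3 passed in no line, although the small differences of PSMB1, 0.13 ± 0.07 in A549 and -0.17 ± 0.07 in ES2 at the ends, differed between lines (limma adjusted p = 0.0218). PSMB3 had 16, 44.1 and 32.8 FPKM in siC and 55, 51.2 and 36.5 FPKM in siI1 in PANC1, with the largest limma standard error of any member there.

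The chaperones PSMG1 to PSMG4 assemble the alpha ring. In PANC1 PSMG3 had 15.3, 17.3 and 14.6 FPKM in siC and 19.9, 22.3 and 21.1 FPKM in siI1. All siI1 libraries were higher, with a log2 fold change of 0.41 ± 0.08 (limma adjusted p = 0.014) that was lost without siC 1 or siI1 2 (up to 0.0587). In MV3 PSMG3 was lower (-0.18 ± 0.04, limma adjusted p = 0.0165, lost without siC 1 or siC 2), as was PSMG1 (-0.34 ± 0.05, limma adjusted p = 0.00277). PSMG3 differed between lines (limma adjusted p = 0.00181), and PSMG2 and PSMG4 passed in no line. POMP, which completes the assembly of the beta ring and lies outside the naming rule, rose from 25.8 ± 1.15 to 36.7 ± 2.46 FPKM (SD) in A549 (0.50 ± 0.07, limma adjusted p = 0.00647) and from 34.7 ± 3.89 to 45.1 ± 2.77 FPKM (SD) in PANC1 (0.38 ± 0.09, limma adjusted p = 0.0278), the latter call being lost without any library except siC 2. Its differences in ES2 (0.04 ± 0.10) and MV3 (0.10 ± 0.07) did not pass.

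Of the regulators, PSMF1 (chr20:1113240-1189415), which encodes the inhibitor PI31 that binds the core, was lower in 3 lines. In A549 it had 17.5, 14.8 and 17.3 FPKM in siC and 10.4, 10 and 10.9 FPKM in siI1 and in ES2 9.79, 10.4 and 8.85 FPKM in siC and 6.46, 5.58 and 6.59 FPKM in siI1. In MV3 it had 11, 10.3 and 9.67 FPKM in siC and 6.92, 7.37 and 7.22 FPKM in siI1. The groups were separate in each, and the log2 fold changes were -0.63 ± 0.08, -0.60 ± 0.09 and -0.50 ± 0.06 (limma adjusted p = 0.00675, 0.00578 and 0.00116). In PANC1, with 6.74, 9.96 and 7.31 FPKM in siC and 7.82, 8.13 and 8.15 FPKM in siI1, the groups overlapped (0.02 ± 0.14, limma adjusted p = 0.924), and the lines differed (limma adjusted p = 0.00364).

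PSME3, the subunit of the nuclear PA28gamma activator, was lower in ES2 (-0.35 ± 0.09, limma adjusted p = 0.0308, lost without any library except siC 2) and MV3 (-0.27 ± 0.06, limma adjusted p = 0.0106). Its differences in A549 (-0.18 ± 0.05) and PANC1 (0.09 ± 0.07) did not pass, and the lines differed (limma adjusted p = 0.00578). PSME1 and PSME2, the interferon-responsive PA28 subunits, passed in no line. PSME1 varied widely among replicates, with 10.6, 20.4 and 11.8 FPKM in siC and 15.2, 15.2 and 17.6 FPKM in siI1 in PANC1, and PSME2 lay between -0.17 ± 0.05 in A549 and 0.11 ± 0.05 in ES2. PSME4, the PA200 activator, passed in no line, with 16.6, 16.8 and 17.2 FPKM in siC and 17.2, 17.1 and 17.3 FPKM in siI1 in MV3 and differences of at most 0.10.

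The immunoproteasome was low in all lines, and 1 of its subunits rose, in ES2. PSMB10 (chr16:67934506-67936864) had 5.13, 6.09 and 6.13 FPKM in siC and 9.8, 10.4 and 10.1 FPKM in siI1 in ES2. Its ES2 groups were far apart, with a log2 fold change of 0.76 ± 0.08 (limma adjusted p = 0.00182). In A549 it had 5.95, 5.02 and 4.55 FPKM in siC and 4.19, 2.25 and 1.98 FPKM in siI1 and in PANC1 1.95, 1.97 and 2.19 FPKM in siC and 1.26, 0.718 and 1.44 FPKM in siI1. In both, on 13 to 45 and 8 to 34 reads per library, all siI1 libraries were lower, but the differences of -0.83 ± 0.26 and -0.65 ± 0.20 did not pass (limma adjusted p = 0.0911 and 0.0594). In MV3 the groups overlapped (0.04 ± 0.10, limma adjusted p = 0.796), and the fold changes differed between lines (limma adjusted p = 0.00032). Another gene on the same strand shares 39.4% of the exon bases of PSMB10.

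PSMB9 had 0.862, 0.695 and 0.677 FPKM in siC and 1.24, 1.17 and 1.27 FPKM in siI1 in ES2, from 14 to 33 reads per library. All siI1 libraries were higher, but the log2 fold change of 0.48 ± 0.16 did not pass (limma adjusted p = 0.0782). PSMB8 had 1.24, 2.28 and 1.59 FPKM in siC and 2.1, 1.18 and 1.3 FPKM in siI1 in ES2, with overlap (-0.12 ± 0.25, limma adjusted p = 0.768). In A549 and PANC1 PSMB8 differed by -0.52 ± 0.31 and -0.32 ± 0.33 and passed in neither, on 3 to 10 and 2 to 15 reads per library. PSMB8 in MV3, at 0.369 to 0.572 FPKM, and PSMB9 in A549 and MV3, at 0.195 to 0.718 FPKM, were below the minimum mean level and were not tested.

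Set against the constitutive subunit it replaces, PSMB10 stood at 6.71, 7.76 and 7.22% of PSMB7 in the siC libraries of ES2 and at 17, 18.8 and 16.8% in the siI1 libraries. The ratio, which does not depend on how libraries were scaled, thus separated the ES2 groups. In MV3 it was 2.35% ± 0.27 in siC and 3.15% ± 0.28 in siI1 (SD, n = 3), without overlap, and there PSMB7 fell while PSMB10 was not detectably different. In PANC1 it was 2.44% ± 0.36 and 1.57% ± 0.54, the siI1 libraries being lower, and in A549 the groups overlapped (5.23% ± 0.55 and 3.56% ± 1.82). PSMB9 stood at 0.555% ± 0.09 of PSMB6 in ES2 siC and 1.18% ± 0.01 in siI1, without overlap, and the ratio of PSMB8 to PSMB5 overlapped in every line. These ratios are descriptions and were not tested.

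Genes of the interferon route and of peptide loading were higher in ES2 in 6 of 10 tested, against 13.4% of protein-coding genes, among them IFNGR1 (0.53 ± 0.09), JAK1 (0.70 ± 0.09), IRF1 (0.74 ± 0.09), ERAP1 (0.86 ± 0.06) and B2M (0.52 ± 0.06). IRF1, a transcription factor that induces immunoproteasome genes, went from 4.52 ± 0.47 to 7.9 ± 0.413 FPKM (SD) in ES2 (limma adjusted p = 0.00263). It passed in no other line, with differences of -0.11 ± 0.13, 0.10 ± 0.06 and 0.13 ± 0.15 in A549, MV3 and PANC1. MV3 had 3 higher and 1 lower of 11 tested, against 19.6% and 26.8%, A549 1 and 1 of 11, against 7.94% and 11.4%, and PANC1 0 and 2 of 10, against 13.6% and 17.3%. TAPBP, which tethers MHC class I to the peptide transporter and is named after its values were seen, was lower in A549 (-1.24 ± 0.23, limma adjusted p = 0.0199, lost without siC 1, siC 3, siI1 1 or siI1 3) and in PANC1 (-0.77 ± 0.09). ERAP1, a peptide-trimming enzyme, was lower in PANC1 (-0.58 ± 0.12, lost without siC 1, siI1 1 or siI1 3). IFNGR1 (0.38 ± 0.07, limma adjusted p = 0.00833) and JAK1 (0.47 ± 0.06, limma adjusted p = 0.00174) were higher in MV3 too. Both MV3 calls were kept when any 1 library was left out. The PANC1 values of IFNGR1, JAK1 and B2M were 0.22 ± 0.07, 0.33 ± 0.14 and 0.24 ± 0.10 and did not pass. NLRC5, the activator of MHC class I genes, was higher in MV3 (0.20 ± 0.05, limma adjusted p = 0.0302, lost without any library except siC 3), and the peptide transporter genes TAP1 and TAP2 were at or below 1.35 FPKM in every group.

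PSMB8, PSMB9, TAP1, TAP2 and TAPBP lie in the MHC region on chromosome 6, where levels were low in these tables as a whole, a point examined after the values were seen. Of 199 protein-coding genes between positions 28000000 and 34000000, 2.51 to 4.52% reached 10 FPKM in siC cells, against 19.6 to 22.8% of all protein-coding genes. CSNK2B in this region was at 0.419 to 0.621 FPKM, while CSNK2A1, which encodes the partner subunit of the same kinase, was at 29.2 to 40 FPKM. Whether the levels of PSMB8 and PSMB9 were affected was not tested, and PSMB10 lies on chromosome 16.

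Across lines, 23 of the 44 members tested in both ES2 and MV3 were lower in both, against 12.9% of protein-coding genes tested in both. Lower in all 4 lines were PSMD2, PSMD4 and PSMD10, a count of 3 that became 1 (PSMD10) without any 1 library of A549 except siC 2. With PSMB7, PSMC1, PSMD1, PSMD3, PSMD11, PSMD14 and PSMF1 the members lower in at least 3 lines were 10 of 44. Of protein-coding genes, 3.28% were lower in all lines and 9.34% in at least 3. A further 13 members (PSMA5, PSMA7, PSMB5, PSMB6, PSMC2, PSMC3, PSMC4, PSMC5, PSMC6, PSMD7, PSMD8, PSMD13 and PSME3) passed in ES2 and MV3 and in neither A549 nor PANC1. Of those 13 the fold change differed between lines for 10, and for PSMA7, PSMC2 and PSMC3 no difference was detected (limma adjusted p = 0.0702, 0.37 and 0.287). All 10 members lower in PANC1 were also lower in MV3, and PSMA1, PSMA3 and PSMB2 were lower in MV3 and PANC1 without passing in ES2. Of all protein-coding genes tested, 26.8% were lower in MV3 and 17.3% in PANC1. The shares of protein-coding genes with these overlaps, or lower in ES2 and MV3 alone, were not computed. Altogether 24 of 44 members differed between lines, against 54.8% of protein-coding genes, with 12 of 17 cap genes and 8 of 14 core genes among them.

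**Figure D5:**
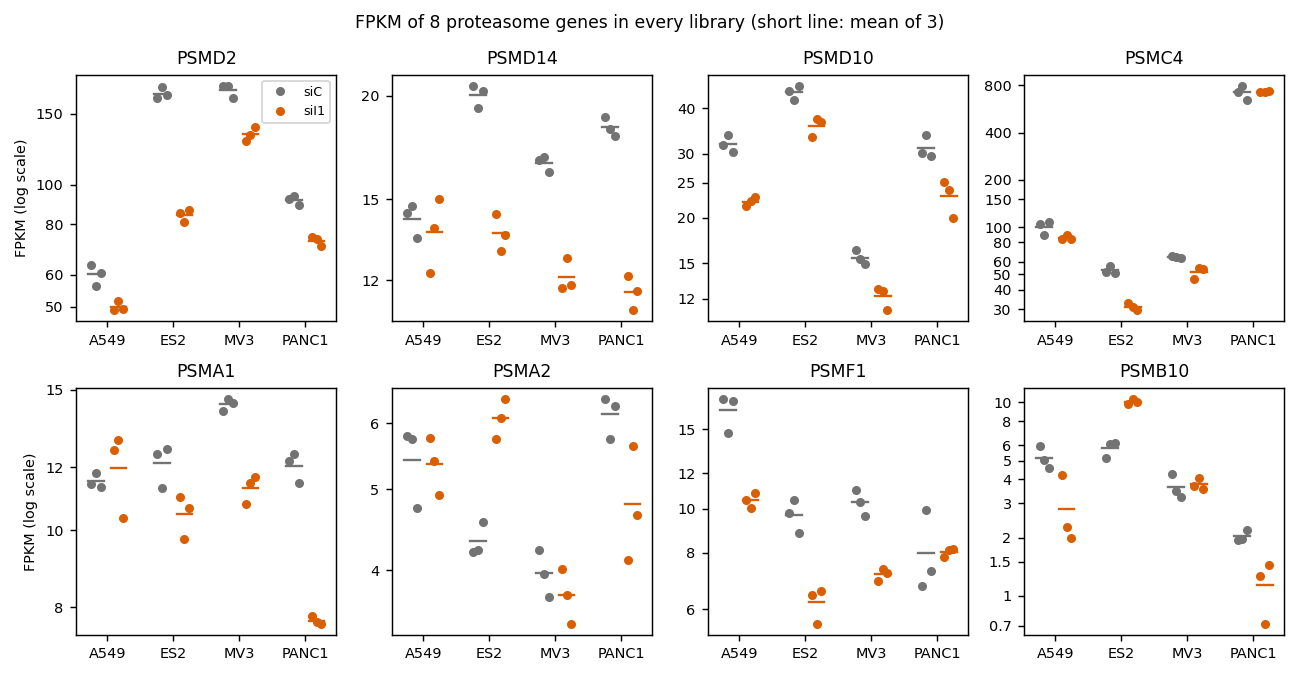
FPKM of selected proteasome genes in each of the 24 libraries, siC and siI1 side by side in each line. PSMD2 and PSMD10 are lower in siI1 in all 4 lines, while PSMB10 passed the test as higher only in ES2.

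Over the 44 members, fold changes in ES2 and MV3 had a Spearman correlation of 0.63, and other pairs of lines of -0.01 to 0.32. The points are genes of 1 complex that share libraries within a line and are not independent. The 3 members with positive calls were the alpha subunit PSMA2 and the immunoproteasome subunit PSMB10 in ES2 and the assembly chaperone PSMG3 in PANC1. Of the 44 members tested in every line, 13 were lower in none, a count for which the share of protein-coding genes was not computed. These were PSMA2, PSMA4, PSMA6, PSMB1, PSMB3, PSMB10, PSMD5, PSMD9, PSME1, PSME2, PSME4, PSMG2 and PSMG4.

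IGF2BP1 binds mainly in 3'UTRs, so their length was compared (GENCODE 44, longest annotated 3'UTR per gene). The median over the 44 members tested in all lines was 477.5 nt, against 1535 nt over 9587 protein-coding genes, and 12 members were at or above the latter. Lengths ran from 44 nt in PSME2 to 7166 nt in PSMF1. The latter exceeds the gene length of 5296 nt listed with the deposited values of PSMF1, so that 3'UTR was not all part of the gene counted. Medians were 133 nt in the constitutive beta ring, 348 nt in the alpha ring, 459 nt in the base, 469.5 nt in the lid and 1509 nt in the regulators. Over the members, length and log2 fold change had Spearman correlations of -0.09 in MV3, 0.06 in ES2, 0.01 in A549 and -0.02 in PANC1, while over the protein-coding genes they were 0.01, 0.17, -0.04 and -0.20. Members are spread over the genome, 8 on chromosome 14 and 7 on chromosome 17 being the largest groups, and on chromosome 14 PSME1 and PSME2 are neighbours.

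Some members have near copies that were counted as genes of their own. Of 29 listed pseudogenes of members, PSMC1P1 was the most abundant (11.3 to 15.7 FPKM beside PSMC1) and PSME2P2 reached 1.5 to 3.25 FPKM beside PSME2. PSMC1P1 was lower in ES2 (log2 fold change -0.48, limma adjusted p = 0.00257), as was PSMC1, and how reads were split between gene and copy was not tested. PSMD7 shares 31.2% of its exon bases with a gene on the opposite strand.

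Other genes of the pathway, pooled with the 12 listed genes of the interferon route and of peptide loading, gave a mixed picture. Of 39 such genes, 37 or 38 were tested per line, and 16 of 38 were lower in MV3 (against 26.8% of protein-coding genes), 10 of 37 in ES2 (17.9%), 10 of 37 in PANC1 (17.3%) and 2 of 38 in A549 (11.4%). Higher were 3 in MV3 (19.6%), 6 in ES2 (13.4%), 5 in PANC1 (13.6%) and 5 in A549 (7.94%). All of the higher genes in ES2 and MV3 were of the interferon route and peptide loading, as was 1 in A549 and 0 in PANC1. The lower genes included 0 of that group in ES2 and 1 in MV3. ADRM1, a further ubiquitin receptor outside the naming rule, fell from 88.3 ± 7.61 to 52.7 ± 1.95 FPKM (SD) in ES2 (-0.74 ± 0.07, limma adjusted p = 0.00113). In MV3 it fell from 96.3 ± 2.26 to 67.7 ± 4.53 FPKM (SD) (-0.51 ± 0.05, limma adjusted p = 0.000803). It did not pass in A549 (-0.12 ± 0.08) or PANC1 (-0.02 ± 0.07). SEM1, a small lid subunit that the naming rule leaves out, was lower in no line and is named after its values were seen. Its siI1 libraries lay above its siC libraries in A549 (0.25 ± 0.10), ES2 (0.16 ± 0.08) and PANC1 (0.28 ± 0.08), of which PANC1 passed (limma adjusted p = 0.0386, lost without any 1 of the 6 libraries), and in MV3 the groups overlapped (0.07 ± 0.06). NFE2L1, which drives transcription of subunit genes, was lower in ES2 (-0.25 ± 0.05, lost without 4 of 6 libraries), MV3 (-0.45 ± 0.03) and PANC1 (-0.48 ± 0.07), and did not pass in A549 (-0.03 ± 0.07). Its protease DDI2 was lower in MV3 (-0.32 ± 0.05) and PANC1 (-0.54 ± 0.07).

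Among genes that deliver substrates, UBE3C, a ligase that extends ubiquitin chains at the proteasome, fell in all 4 lines. Its log2 fold changes were -0.83 ± 0.06 in PANC1, -0.68 ± 0.04 in MV3, -0.45 ± 0.04 in ES2 and -0.59 ± 0.06 in A549 (limma adjusted p = 0.00109, 0.000166, 0.00125 and 0.00324). VCP, the ATPase that extracts ubiquitinated proteins, and its cofactor NPLOC4 were lower in ES2, MV3 and PANC1, with log2 fold changes of -0.28 to -0.23 for VCP and -0.35 to -0.22 for NPLOC4. In PANC1 VCP lost its call without any 1 of the 6 libraries and NPLOC4 without any library except siC 2, and in ES2 VCP without siI1 1 or siI1 2. Of the genes that encode ubiquitin, UBB was lower in ES2 (-0.23 ± 0.07, lost without any library except siI1 1), and RPS27A was lower in MV3 (-0.18 ± 0.03) and higher in A549 (0.37 ± 0.06) and PANC1 (0.27 ± 0.08, lost without any library except siC 2).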

How the data were processed

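Total RNA of 24 samples in 8 groups was depleted of ribosomal RNA and sequenced from a directional library kit. According to the submitters' processing notes and the methods, reads were trimmed (cutadapt 1.14), mapped to hg38 (HISAT2 2.1.0, SAMtools 1.5), counted per Ensembl gene (featureCounts 1.5.3, strand setting not given in the sources used here) and normalised by TMM in edgeR 3.30.3. The authors deposited 1 table per cell line with FPKM per library. The unit is not named in the tables and was worked out from the values, 100% of which were whole reads (tolerance 0.001) times a factor per gene length and library, so depth could be recovered. Each table was normalised on its own, so levels compared between lines are set across separate scalings. The deposited log2 fold change, p-value and FDR columns hold the authors' own comparison and were not used.

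Samples were grouped by title. Per line, limma 3.58.1 (R 4.3.3, lmFit and eBayes with intensity trend) was fitted to log2(FPKM + 0.5) over all genes that averaged 0.5 FPKM or more in its 6 libraries, and p-values were adjusted by Benjamini-Hochberg over all genes tested in the line (threshold 0.05, two-sided). Fold changes were compared between lines by a moderated F test over all 24 libraries and 12816 genes. The values were read and summarised in Python 3.11.15 (numpy 2.4.6, pandas 2.3.3, matplotlib 3.10.9), and positions, 3'UTRs and overlaps came from GENCODE 44. For some members its gene models differ in length from those used for counting. The scripts were tested on simulated data. Replicates are separate biological repeats per the methods, and no pair of libraries agreed within sampling noise (chi-square per gene 1.54 to 15.1 over 24 pairs).

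Genes named are members that passed in the same direction in at least 3 lines, the 3 largest falls and rises per line, the catalytic and immunoproteasome subunits, the 5 lowest p-values between lines, the regulators, the tissue-restricted subunits and, from the other pathway genes, those that passed in at least 3 lines together with a set of 8. Further names complete the groups to which these belong, and a few genes of the other lists are not reported here. The members and lists were chosen with earlier results of these data known. Alternatives were other pseudocounts (0.1 and 1), filters, scalings, a minimum log2 fold change of 0.3, no intensity trend, a replicate block, limma voom on the recovered reads, 1 fit of all libraries, Cochran's Q between lines and the omission of each library.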

Additional observations from a re-analysis of the deposited data

Results flagged for a closer look

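The fold change after IGF2BP1 knockdown differed between cell lines for 24 of the 44 members tested in all lines. The test was limma's moderated F test with Benjamini-Hochberg adjustment over 12816 genes. PSMA3, PSMA5, PSMB1, PSMC5, PSMC6, PSMD6, PSMD7 and PSMD13 were among the 24 and are not listed again here. The 16 members that met the naming rules above are listed. In the 19S base these were PSMD2 (adjusted p = 2.44e-07), PSMD1 (2.07e-05) and PSMC4 (0.000116). In the lid they were PSMD8 (adjusted p = 0.000136), PSMD14 (0.000148), PSMD3 (0.00147) and PSMD11 (0.0136). In the core they were PSMA1 (adjusted p = 0.000173), PSMB5 (0.000495), PSMA2 (0.00102), PSMB6 (0.00563), PSMB2 (0.0198) and the immunoproteasome subunit PSMB10 (0.00032). PSMF1 (adjusted p = 0.00364), PSME3 (0.00578) and the assembly chaperone PSMG3 (0.00181) completed these 16.

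The patterns behind these values were of several kinds. PSMD2 was lower in every line, with -0.99 in ES2 and between -0.36 and -0.26 elsewhere. PSMB10 was higher in ES2 (0.76), while its values in A549 (-0.83) and PANC1 (-0.65) were negative and did not pass. PSMG3 was higher in PANC1 (0.41) and lower in MV3 (-0.18). PSMA1 was lowest in PANC1 (-0.61), and PSMC4, PSMD3, PSMB6 and PSMF1 were lower in ES2 and MV3 with differences of 0.02 to 0.06 in PANC1. Of these, PSMF1 (-0.63) and PSMD3 (-0.22) were lower in A549 too, the PSMD3 call being lost without any library except siC 2. The share of protein-coding genes that differed between lines was 54.8%.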

How the results depend on the processing

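Every number here is a count of members unless said otherwise. A549 lower members (6 as reported) were 2 with a minimum fold, without the intensity trend or with the replicate block and 10 with all 24 libraries in 1 fit, and A549 higher members (0) were 1 with the sum of protein-coding genes or their median set equal or with voom and 2 in the common fit. ES2 lower members (26) were 17 with the same sum of all genes and 16 with the same sum of protein-coding genes, which gave 5 higher. MV3 lower members (28) were 14 with a minimum fold, and MV3 higher members (0) were 1 with a mean of at least 1 FPKM, with the same sum of all genes, with the median set equal or with voom and 3 with the same sum of protein-coding genes. PANC1 lower members (10) were 40 and higher members 0 with the same sum of all genes, under which 40 differed between lines, and higher members were 2 with voom and 4 in the common fit. With 1 library left out, lower members were 24 to 31 in MV3, 18 to 23 in ES2, 6 to 10 in PANC1 and 2 to 6 in A549, higher members were 0 to 1, 2 to 2, 0 to 3 and 0 to 1, and 17 to 25 differed between lines. PANC1 had no higher member without siC 1 or siI1 2 and 3 without siC 2. Of the calls as reported, 13 of 28 in MV3, 17 of 28 in ES2, 5 of 11 in PANC1 and 2 of 6 in A549 held in every alternative, and 22, 17, 6 and 2 in the 17 other than the minimum fold. The cause of these changes was not tested.

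With the sum of all genes set equal in PANC1, which lowers the median of all protein-coding genes to -0.71, log2 fold changes turned negative for PSMD3 (-0.68), PSMF1 (-0.69), PSMC4 (-0.74), PSMG3 (-0.32), PSMB5 (-0.52), PSMB6 (-0.71), PSMD8 (-0.57), PSME2 (-0.68), PSME3 (-0.65), PSME4 (-0.73) and POMP (-0.37). Group medians in PANC1 then became -0.71 for the beta ring, -0.65 for the 19S chaperones, -0.68 for the regulators and -0.66 for the 20S chaperones, and that of the A549 core -0.019. With the sum of protein-coding genes set equal, medians became 0.016 for the alpha ring, 0.059 for the 19S chaperones and 0.14 for the regulators of ES2 and 0.038 for the 19S and 0.015 for the 20S chaperones of MV3. The ES2 regulators had 0.065 with the same sum of all genes and 0.033 with the median set equal, and the A549 lid 0.031 with the latter.

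The correlation of same-numbered deviations of siC and siI1 libraries lay between -0.06 and 0.07. With 3 libraries per group, such values cannot settle whether samples were handled in pairs. With replicate number as a block, lower members were 26 in MV3, 18 in ES2, 8 in PANC1 and 2 in A549, higher members 0, 2, 1 and 0, and 21 differed between lines. Depth limits the immunoproteasome subunits, PSMB8 resting on 2 to 15 reads per library in PANC1 and 3 to 10 in A549.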
